A study of Mus musculus with 16 samples.

Results

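Extracellular matrix and integrin RNAs were taken from the tables of significant RNA–DNA pairs of mouse embryonic stem cells (mESCs) as the protein-coding RNAs (pcRNAs) whose name marks a collagen, laminin, fibrillin, fibulin, nidogen, glypican, syndecan, thrombospondin, fibronectin, perlecan, Fraser complex protein, ADAMTS protease or integrin subunit. The name pattern found 116 RNAs of the 10736 pcRNAs and 12080 RNA names of all classes in the tables. Of the 139 annotated protein-coding genes with such a name, 23 were not listed in the tables used here, among them *Col1a2*, *Col3a1*, *Thbs1* and *Itga2*. The pattern also matched 4 names that are no matrix protein or integrin, namely *Col4a3bp*, which encodes a ceramide transfer protein, and *Itgb1bp1*, *Itgb1bp2* and *Itgb3bp*, whose products bind an integrin tail.

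The cells were of the line PGK12.1, grown with leukaemia inhibitory factor in serum and fixed with 1% formaldehyde, and no group carried a mutation or drug. RADIP ligates nuclear RNA to nearby chromatin through an adaptor and then selects the chimeras with an antibody, here against H3K27me3, while Input is the same lysate without antibody selection. Each condition has 8 libraries in the labels and 4 biological replicates in the study's text, which the authors merged into 1 table per condition, so no spread between replicates can be given and no difference was tested. Intervals are for counting error only, and each ratio compares the 2 merged tables, not the conditions. Each table line joins 1 RNA tag to 1 DNA tag, and a combination of an RNA and a 25-kb bin is listed only with at least 7 pairs. Pairs of combinations below that number are missing from every count, ratio and share, and no interval covers them. A pair count follows how much of an RNA is on chromatin as well as what the antibody selects, and it is not an expression level.

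The extracellular matrix is the protein mesh outside cells. Basement membranes are its thin sheets, built from laminin trimers and type IV collagen tied together by nidogens and perlecan, while fibrillar collagens, fibrillins and fibulins form fibres. Integrins, each an alpha and a beta subunit, and the proteoglycans of the syndecan and glypican families receive this mesh at the cell surface. H3K27me3, laid down by Polycomb repressive complex 2, covers many genes of later lineages that are silent or weakly transcribed in mESCs. In the early embryo laminins and type IV collagen are made by primitive and parietal endoderm.

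A total of 14143 Input pairs and 16702 H3K27me3-RADIP pairs belonged to these RNAs. They were 1.12% of the 1261178 pcRNA pairs of Input (95% Wilson interval 1.1 to 1.14%) and 1.23% of the 1359456 pcRNA pairs of H3K27me3-RADIP (1.21 to 1.25%). Of mESC markers, 5 of 10 were listed, with 2388 and 2500 pairs for *Esrrb* in Input and H3K27me3-RADIP, 130 and 98 for *Zfp42*, 76 and 100 for *Tbx3*, 13 and 13 for *Klf4*, and 8 pairs for *Sox2* in H3K27me3-RADIP alone. Of endoderm markers, 7 of 10 were listed, led by the members *Lama1* and *Col4a1*, with *Gata4* at 29 and 41 pairs, *Gata6* at 9 and 15, *Dab2* at 9 and 22, *Sparc* at 9 and 10 and *Pdgfra* at 7 and 0. Of fibroblast markers, 2 of 8 were listed, with *Pdgfrb* at 11 and 12 pairs and *Col1a1* at 0 and 7. The part of other cells in the results was not tested.

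Single pairs show what was counted. The tags below are from *Fras1*, which had the highest ratio, from *Fbln1* and *Col4a1*, which were paired in H3K27me3-RADIP with bins that Input did not list, and from *Itgb1*, the abundant member with the lowest ratio. Each is 25 bases of GRCm38.p6 from the start to the end the deposited tables give. RNA tags are on the strand of the gene and DNA tags on the plus strand. Only pairs with the RNA tag in an intron were considered. For *Fras1* and *Col4a1* the longest pair over the stretch described below was taken. For *Fbln1* and *Itgb1* it was the pair with the DNA tag nearest the start site of *Wnt7b* or *Itgb1*. Pairs picked by distance in this way need not be typical. No part is in capitals because no part of a tag was singled out.
Fras1 RNA tag, Input, chr5:96711535-96711559 (+): tcactctgtcctctaagccttgtgg
Fras1 DNA tag, Input, chr5:96657207-96657231 (+): ccacccagctgcttgacatccggga
Fras1 RNA tag, H3K27me3-RADIP, chr5:96742008-96742032 (+): ctcatcctcagtggatcaggtaacg
Fras1 DNA tag, H3K27me3-RADIP, chr5:96665721-96665745 (+): ctctacaaccaaagtcaaagttgac
Fbln1 RNA tag, H3K27me3-RADIP, chr15:85227399-85227423 (+): cgggagtgcccctagagctcactgt
Fbln1 DNA tag, H3K27me3-RADIP, chr15:85582844-85582868 (+): gaggaggggtatgagggggcgctgt
Col4a1 RNA tag, H3K27me3-RADIP, chr8:11209848-11209872 (-): gtggcgtttgctgtgcccacgggca
Col4a1 DNA tag, H3K27me3-RADIP, chr8:11406029-11406053 (+): tagggactcacacagccgccatgct
Itgb1 RNA tag, Input, chr8:128724923-128724947 (+): ctttgtggaattgtttctcttttgc
Itgb1 DNA tag, Input, chr8:128685589-128685613 (+): accttccttcttcctgccgcctccc
Itgb1 RNA tag, H3K27me3-RADIP, chr8:128693305-128693329 (+): tctcaagagtccccaaaattccaaa
Itgb1 DNA tag, H3K27me3-RADIP, chr8:128685580-128685604 (+): ccctgccccaccttccttcttcctg
The *Fras1* tags are from the 25-kb bin listed in both tables, and the 2 pairs shown span 54.3 kb (Input) and 76.3 kb (H3K27me3-RADIP). The *Fbln1* pair joins an intron of *Fbln1* to DNA 0.383 kb from the start site of *Wnt7b*, over 355 kb. The *Col4a1* pair reaches from *Col4a1* into the body of *Col4a2*, over 196 kb. The *Itgb1* DNA tags lie 0.053 and 0.062 kb from the start site of the gene itself, with the RNA tag 39.3 kb (Input) and 7.73 kb (H3K27me3-RADIP) away.

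*Fbln2* and *Itgb1* had their own start sites paired with their RNA, with opposite differences between the tables, so the 250 bases before their RefSeq starts are shown from the RefSeq promoter table of GRCm38.p6, with each CG dinucleotide in capitals.
Fbln2 before its RefSeq start, chr6:91212514-91212763 (+): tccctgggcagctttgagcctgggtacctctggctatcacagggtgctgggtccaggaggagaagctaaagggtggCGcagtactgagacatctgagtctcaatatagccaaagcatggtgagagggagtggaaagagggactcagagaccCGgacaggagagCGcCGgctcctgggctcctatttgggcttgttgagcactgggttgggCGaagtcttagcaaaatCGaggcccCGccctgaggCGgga
Itgb1 before its RefSeq start, chr8:128685404-128685653 (+): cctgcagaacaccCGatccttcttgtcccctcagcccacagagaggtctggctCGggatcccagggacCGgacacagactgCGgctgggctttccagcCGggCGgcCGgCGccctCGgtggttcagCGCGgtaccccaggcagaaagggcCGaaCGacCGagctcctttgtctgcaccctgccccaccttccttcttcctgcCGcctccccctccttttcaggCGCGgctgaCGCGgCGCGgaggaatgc
The *Fbln2* stretch lies after the GENCODE start at chr6:91212455, from which its bins and distances were counted, so it is inside the GENCODE gene, while the *Itgb1* stretch ends just before the GENCODE start. The *Fbln2* stretch holds 8 CG and that of *Itgb1* holds 21, against a median of 6 CG (quartiles 2 and 17) over 27025 genes of the promoter table, of which 92.3% hold at least 1, where a gene with several entries was counted by the entry with the most CG. The start-site bin of *Fbln2* had 9 pairs with its own RNA in Input and 20 in H3K27me3-RADIP, and that of *Itgb1* had 47 and 24.

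Matrix and integrin RNAs were mostly higher in H3K27me3-RADIP than in Input. The log2 ratio of pairs, H3K27me3-RADIP over Input, was normalized by the trimmed mean of M values (TMM) over the 8158 pcRNAs listed in both tables. Of 90 members in both tables, 84 had at least 20 pairs over both. A ratio of 2-fold or more was reached upward by 20 of these 84 (23.8%), beside 7.44% of 7660 pcRNAs, and downward by 1 (1.19%), beside 8.28%. The log2 ratio was above 0 for 59 members (70.2%), beside 50.1% of pcRNAs, and its median was 0.40 (quartiles -0.04 and 0.95), beside 0.00 over all. The counting interval lay wholly above 0 for 41 of the 84 members and wholly below 0 for 9, beside 1513 and 1430 of 7660 pcRNAs. The minimum of 20 pairs is over both tables, so an RNA can pass it through the table where it is high, and this holds within each range of depth as well. Among members with 20 to 49 pairs, 12 of 28 were 2-fold higher (42.9%), beside 13.7% of pcRNAs of that depth, and none was 2-fold lower, beside 13.3%. With 50 to 99 pairs 6 of 20 were higher, beside 9.38%, and 1 was lower, beside 10.7%. With 100 to 499 pairs 2 of 25 were higher, beside 3.60%, and none was lower, beside 5.52%. None of the 11 members with at least 500 pairs was past 2-fold, beside 0.18% higher and 0.36% lower, and their median log2 ratio was 0.10, beside 0.08.

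**Figure D1:**
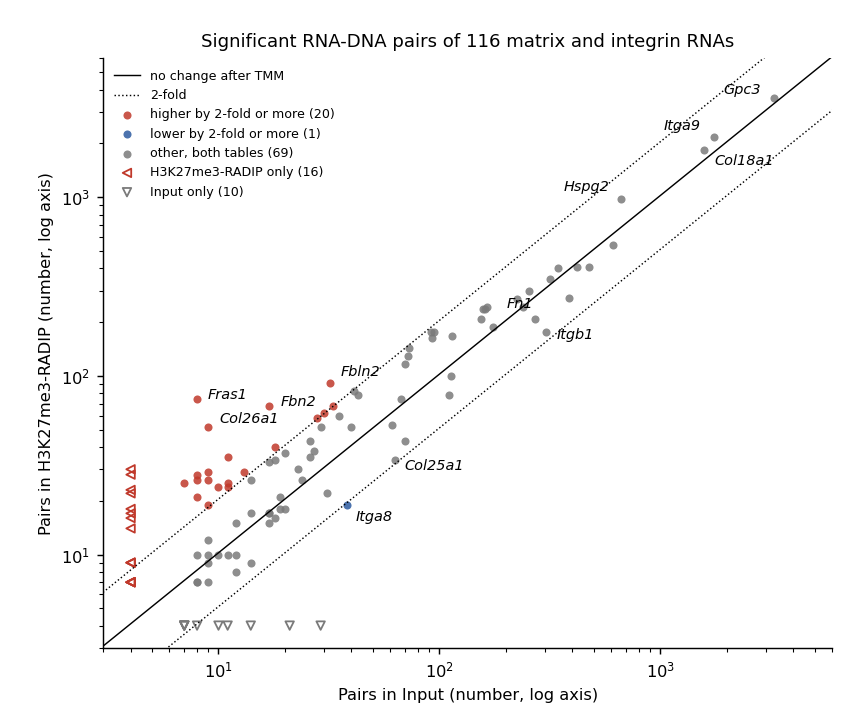
Pairs per RNA in Input (x axis, number, log scale) and H3K27me3-RADIP (y axis, number, log scale) for the 116 members, 1 point per RNA, with open triangles at the margins for RNAs listed in 1 table. The 20 RNAs that are 2-fold higher in H3K27me3-RADIP (red) have between 7 and 33 Input pairs, and *Itga8* (blue) is the member 2-fold lower.

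Detection in only 1 table was near that of all pcRNAs. H3K27me3-RADIP alone listed 16 of the 116 members (13.8%, beside 13.5% of pcRNAs) and Input alone listed 10 (8.62%, beside 10.5%). The 4 with the most pairs in H3K27me3-RADIP alone were *Col19a1* with 30 pairs, *Lama4* with 28, *Adamts3* with 23 and *Col5a3* with 22. Those in Input alone were *Col24a1* with 29, *Col4a4* with 21, *Col28a1* with 14 and *Col2a1*, the cartilage collagen, with 11. No fold is given for these, since the tables leave out combinations with fewer pairs.

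The Fraser complex proteins anchor epithelia to the dermis, and their largest ratio was that of *Fras1* (chr5:96373955-96784728, plus strand). *Fras1* had 8 Input pairs and 74 H3K27me3-RADIP pairs, a log2 ratio of 3.18 (2.12 to 4.44). All of its pairs had the DNA tag inside the gene itself. The Input pairs were in 1 bin, which held 11 H3K27me3-RADIP pairs, and the other 63 H3K27me3-RADIP pairs were in 7 bins not listed in Input, with 8 to 11 pairs each. Of its H3K27me3-RADIP pairs, 66 had distinct tag positions. No bin with the start site of *Fras1* was listed. Bins with fewer than 7 Input pairs are not listed, so the *Fras1* ratio may be too high, and its interval does not cover this. *Frem2* had 155 and 209 pairs in Input and H3K27me3-RADIP, with a log2 ratio of 0.40 (0.09 to 0.71), while *Frem1* (9 and 12) and *Frem3* (10 and 10) had few pairs.

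Fibrillins form elastic microfibrils and fibulins bind to them. *Fbln2* had 32 Input pairs and 91 H3K27me3-RADIP pairs, a log2 ratio of 1.48 (0.88 to 2.10). It was higher in each of its 3 bins listed in both tables, with 9 and 20 pairs at the start site and 13 and 24, then 10 and 27, further into the gene. H3K27me3-RADIP alone also listed the bin before the start site with 12 pairs and the bin after the gene with 8. *Fbn2* had 17 and 68 pairs, a log2 ratio of 1.97 (1.18 to 2.83), of which 25 H3K27me3-RADIP pairs were in the 2 bins listed in Input. *Fbln1* had 161 and 237 pairs (0.53, 0.23 to 0.82), and in the bins over its own gene the counts were close, at 36 and 35, 37 and 39, and 29 and 32 pairs.

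The pairs that *Fbln1* had more of in H3K27me3-RADIP lay downstream of the gene. A run of 5 bins between 188 and 288 kb past its end, and 1 more at 388 kb, had 8 to 16 pairs each in H3K27me3-RADIP and was not listed in Input. One of these bins (chr15:85575001-85600000) holds the start site of *Wnt7b*, a gene for a secreted WNT ligand, and had 15 pairs (q = 8.3e-07 in the deposited table). All 15 had different RNA tags, all in introns of *Fbln1*, and 11 of the 15 DNA tags were within 5 kb of the *Wnt7b* start site. The share of *Fbln1* pairs over 100 kb apart was 4.97% in Input (2.54 to 9.5) and 30.8% in H3K27me3-RADIP (25.3 to 36.9).

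All 5 basement membrane collagens listed in both tables had a log2 ratio above 0 (beside 50.1% of pcRNAs), while *Col4a4* was listed in Input alone with 21 pairs and *Col4a6* in H3K27me3-RADIP alone with 7. *Col4a1* and *Col4a2* encode the chains of the common type IV collagen and lie head to head on chromosome 8, with start sites 21 bases apart on opposite strands. *Col4a1* had 92 and 175 pairs in Input and H3K27me3-RADIP (0.90, 0.52 to 1.28) and *Col4a2* had 157 and 237 (0.56, 0.26 to 0.86). In the bin with both start sites, *Col4a1* RNA had 16 and 24 pairs and *Col4a2* RNA had 13 and 30. The RNA of *Col4a1* lay over the body of *Col4a2* in 4 of 92 Input pairs (4.35%, 1.70 to 10.7) and in 53 of 175 H3K27me3-RADIP pairs (30.3%, 24.0 to 37.5), and 46 of those 53 had distinct DNA tags. The reverse, *Col4a2* RNA over the body of *Col4a1*, was 24 of 157 pairs (15.3%, 10.5 to 21.7) and 38 of 237 (interval 11.9 to 21.2%). These intervals were apart for *Col4a1* and overlapped for *Col4a2*. They do not cover pairs in bins with fewer than 7, which neither table lists. *Col4a1* was chosen after its values were seen. *Col15a1* had 18 and 40 pairs, *Col4a3* 10 and 24, and *Col18a1*, the source of endostatin, 1571 and 1827 (0.19, 0.09 to 0.28).

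Among the fibrillar collagens *Col5a1* had 165 and 244 pairs (0.53, 0.24 to 0.83), *Col27a1* 93 and 164 (0.79, 0.41 to 1.17) and *Col11a2* 11 and 35 (1.64, 0.63 to 2.76). The other collagens are a mixed group of network, transmembrane and fibril-associated types. Of 13 members 11 were above 0 (beside 50.1% of pcRNAs), with a median log2 ratio of 0.87. Past 2-fold upward were 3, beside 7.44% of pcRNAs, a share not matched for depth. *Col26a1* had 9 Input pairs and 52 H3K27me3-RADIP pairs (2.50, 1.46 to 3.71), and no bin was shared, since its Input bin near the 3′ end of the gene was not listed in H3K27me3-RADIP and its 5 H3K27me3-RADIP bins, the start-site bin with 9 pairs among them, were not listed in Input. *Col6a6* had 7 and 25 pairs (1.80, 0.55 to 3.26). The transmembrane collagens *Col23a1* (95 and 177) and *Col13a1* (73 and 143) had log2 ratios of 0.87 (0.50 to 1.24) and 0.94 (0.52 to 1.36). *Col25a1*, a transmembrane collagen of neurons, went the other way with 63 and 34 pairs (-0.92, -1.57 to -0.30).

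The laminins split by chain. *Lama1*, *Lamb1* and *Lamc1* together form the laminin of the early embryo. *Lama1* had 240 and 242 pairs (-0.02, -0.28 to 0.24), *Lamb1* had 70 and 43 (-0.74, -1.32 to -0.17) and *Lamc1* had 610 and 540 (-0.21, -0.38 to -0.04). *Lama5*, of later basement membranes, had 175 and 187 pairs (0.06, -0.24 to 0.37). Laminins past 2-fold upward included *Lama2*, the muscle chain, with 8 and 26 pairs (1.67, 0.48 to 3.02), and *Lama3*, an epithelial chain, with 33 and 68 (1.01, 0.39 to 1.66). The linkers *Nid1* (61 and 53), *Nid2* (254 and 300) and *Hspg2*, which encodes perlecan (665 and 982), had log2 ratios of -0.24, 0.21 and 0.53, and that of *Hspg2* had the narrowest interval of the 3 (0.39 to 0.67).

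Integrins and fibronectin differed among themselves as well. *Itgb1*, the most widely shared beta subunit, had 303 Input pairs and 177 H3K27me3-RADIP pairs, a log2 ratio of -0.81 (-1.08 to -0.54). In the 7 bins listed in both tables it had 256 and 137 pairs, and the 2 bins after the start-site bin had 78 and 35, then 63 and 23. *Fn1*, which encodes the integrin ligand fibronectin, had 272 and 209 pairs (-0.41, -0.68 to -0.15), with 94 and 70 in its fullest bin, and *Thbs2*, a thrombospondin, had 18 pairs in H3K27me3-RADIP alone. *Itga8* was the 1 member past 2-fold downward, with 38 and 19 pairs (-1.03, -1.91 to -0.20), in 4 Input bins and 2 H3K27me3-RADIP bins of which 1 was shared. *Itgb6* had 14 and 9 pairs, and *Itgb5* had 343 and 400 (0.19, -0.02 to 0.40). *Itga6*, a laminin receptor subunit, had 318 and 348 (0.10, -0.13 to 0.32) and *Itgav* 67 and 74. Upward past 2-fold were the subunits of the platelet integrin, *Itgb3* with 9 and 29 pairs (1.66, 0.54 to 2.92) and *Itga2b* with 9 and 26 (1.5, 0.36 to 2.78), together with *Itga1* and *Itgb4*. The *Itga2b* and *Itgb3* pair was chosen after its values were seen. *Itga9* had by far the most pairs of the integrins, 1747 and 2179 (0.29, 0.20 to 0.38).

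The ADAMTS proteases, which cut procollagens and proteoglycans, had a median log2 ratio of 0.49. Past 2-fold upward were 2 of 12, beside 7.44% of pcRNAs, a share not matched for depth. These were *Adamts19* (8 and 28 pairs, 1.78, 0.60 to 3.12) and *Adamts8* (11 and 25). *Adamts9* had 421 and 407 pairs and *Adamts2*, the procollagen N-proteinase, 114 and 167 (0.52, 0.17 to 0.87). Of the ADAMTS-like proteins, which lack the protease domain, *Adamtsl3* had 28 and 58 pairs (1.02, 0.34 to 1.72) and *Adamtsl1* 387 and 274 (-0.53, -0.76 to -0.30), and the annotation places *Sh3gl2* on the same strand within the span of *Adamtsl1*, so that reads of the overlap may belong to either. The X-linked glypican *Gpc3* had the most pairs of all members, 3272 and 3589 (0.10, 0.03 to 0.17), *Gpc4* beside it had 224 and 270, *Gpc6* had 476 and 407 (-0.26, -0.45 to -0.06) and *Gpc1* had 30 and 62. The syndecans *Sdc4* (35 and 60) and *Sdc2* (26 and 35) had log2 ratios of 0.75 and 0.40, and none of 4 was past 2-fold (beside 7.44% of pcRNAs higher and 8.28% lower). *Col4a3bp* had 110 and 78 pairs, *Itgb1bp1* 12 and 8 and *Itgb1bp2* 9 and 9.

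**Figure D2:**
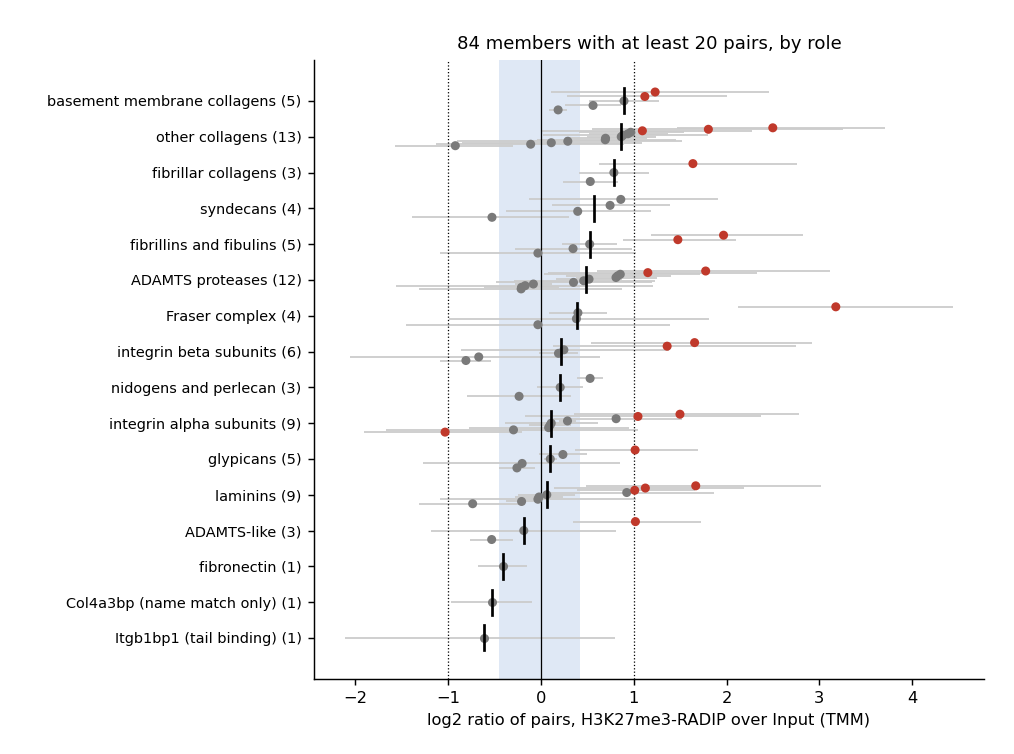
Log2 ratio of pairs, H3K27me3-RADIP over Input (x axis), for the 84 members with at least 20 pairs, grouped by role (y axis, number of members in brackets). Points are RNAs, red at 2-fold or more either way, grey lines are 95% counting intervals, black bars are group medians and the blue band holds the middle quartiles of all pcRNAs. Medians run from 0.90 for basement membrane collagens to 0.06 for laminins and lower for groups with few members.

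Members had 723 Input bins and 878 H3K27me3-RADIP bins, of which 559 were shared, beside 61264, 69989 and 46987 for all pcRNAs, so that bins listed in only 1 table were common in general. The 21 start-site bins, 106 bins within the own gene, 93 upstream and 99 downstream that only H3K27me3-RADIP listed held 223, 1077, 919 and 1032 pairs. Bins listed in Input alone were 8, 61, 48 and 47, with 85, 582, 466 and 463 pairs. In shared bins the Input and H3K27me3-RADIP counts were 7288 and 7256 within the own gene, 797 and 974 at the start site, 1999 and 2234 upstream, and 2463 and 2987 downstream. Because a combination with fewer than 7 pairs is not listed, a bin absent from 1 table may have been just below that number. With the count limited to RNA–bin combinations that both tables list, 4 of 66 members were past 2-fold upward, beside 1.77% of pcRNAs, and the median log2 ratio was 0.21. Of the 20 members past 2-fold, *Fbln2* (1.20), *Itga2b* (1.58) and *Col11a2* (1.05) were past it there as well, and *Fras1* and *Col26a1* had too few pairs in shared bins. The bin with the own start site was listed for 47 of 100 members in Input (47%) and 60 of 106 in H3K27me3-RADIP (56.6%), beside 65.3% and 65.4% of pcRNAs.

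**Figure D3:**
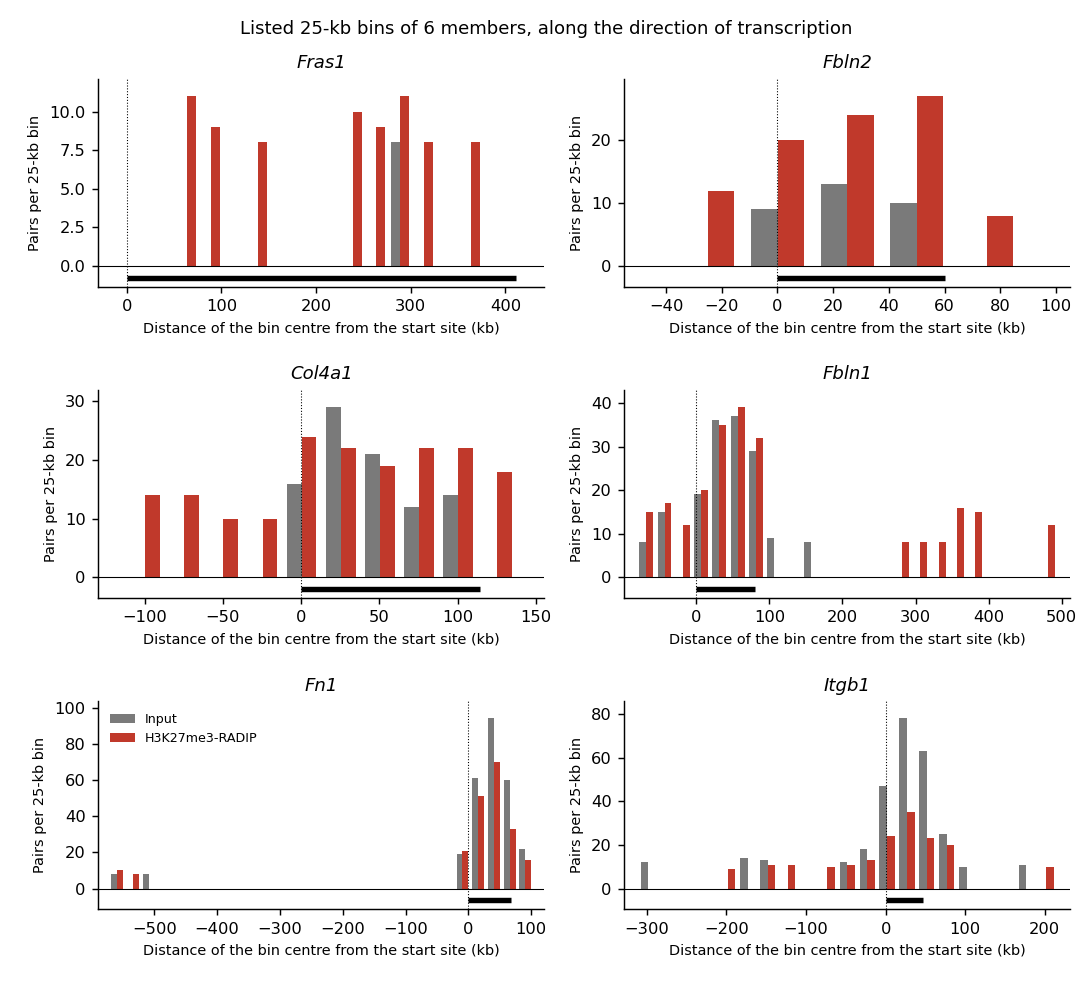
Pairs per 25-kb bin (y axis) in Input (grey) and H3K27me3-RADIP (red) by distance of the bin centre from the start site along transcription (x axis, kb), with the bars of both tables drawn either side of the bin centre and the gene as a black bar under each panel. *Fras1* has 1 Input bin and 8 H3K27me3-RADIP bins, *Col4a1* has H3K27me3-RADIP bins before its start site and *Fbln1* far downstream that Input does not list, and *Fn1* and *Itgb1* are lower over the gene itself.

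The share of distant pairs was larger in H3K27me3-RADIP for these RNAs, as for all pcRNAs. No member pair joined different chromosomes in either table. Such pairs were rare over all pcRNAs too, numbering 37 among 1261178 (Input) and 341 among 1359456 (H3K27me3-RADIP). Their absence here therefore cannot be taken as a trait of these RNAs. The share of *cis* pairs over 100 kb apart was 40.4% in Input (39.6 to 41.2) and 43.8% in H3K27me3-RADIP (43.0 to 44.6), beside 36.4% and 43.7% over all pcRNAs. *Gpc3*, *Itga9* and *Col18a1* carried much of it, and without them the shares were 21.5% and 23.8%. In H3K27me3-RADIP 52 of 72 members with at least 10 *cis* pairs in both tables (72.2%) had a longer median distance, beside 69.5% of pcRNAs, and the median ratio of the 2 distances was 1.33, beside 1.34. Among members with 20 to 49 pairs over both tables only 8 of 18 had a longer median distance (44.4%, median ratio 0.83), beside 58.0% and 1.22 for pcRNAs of that depth. Of 22 members with at least 100 pairs in both tables, 18 had a larger share over 100 kb in H3K27me3-RADIP (81.8%, beside 79.3% of pcRNAs of that depth), and for 8 (36.4%, beside 40.9%) the intervals did not overlap. These 8 were *Gpc3*, *Itga9*, *Col18a1*, *Gpc4*, *Hspg2*, *Fbln1*, *Frem2* and *Adamts2*. None was lower with intervals apart, beside 2.01%, and *Adamts14* was the nearest to it, with 19 of 113 pairs in Input and 5 of 100 in H3K27me3-RADIP.

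**Figure D4:**
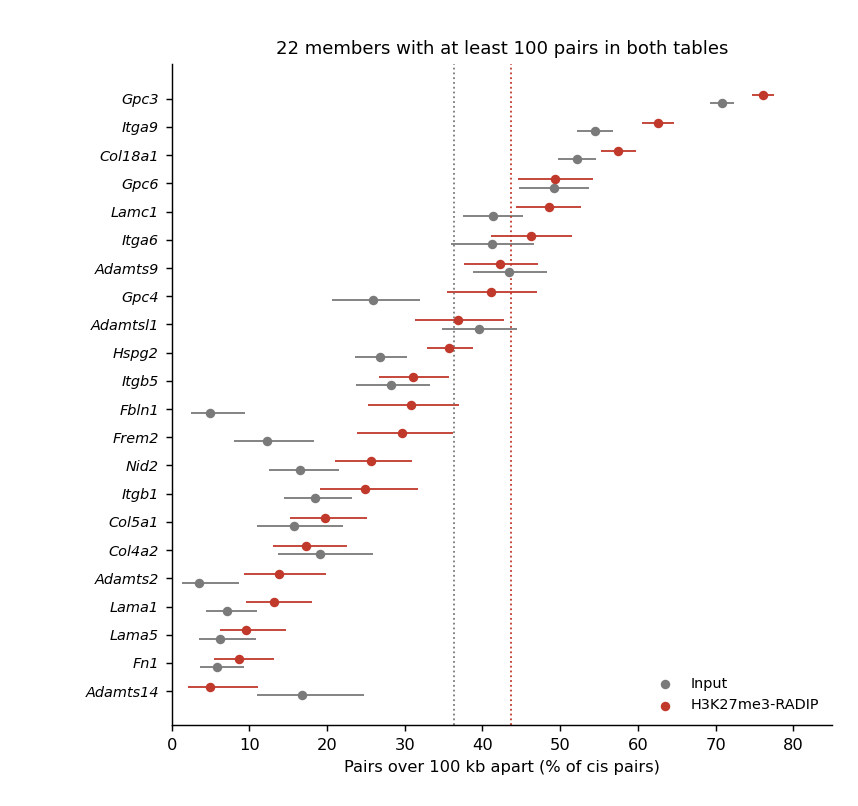
Share of *cis* pairs over 100 kb apart (x axis, %) for the 22 members with at least 100 pairs in both tables (y axis), Input in grey and H3K27me3-RADIP in red, with 95% Wilson intervals for counting error. Dotted lines are all pcRNAs, at 36.4% and 43.7%. *Gpc3* is highest in both tables, and *Fbln1*, *Frem2* and *Gpc4* show the widest gaps.

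Pairs over 1 Mb apart were 649 in Input and 1031 in H3K27me3-RADIP, nearly all from 3 members. They were 4.59% and 6.17% of member *cis* pairs, beside 4.48% and 7.04% over all pcRNAs. Without *Gpc3*, *Itga9* and *Col18a1* the shares were 0.34% and 0.31%. *Gpc3* had 567 and 813, *Itga9* 48 and 105 and *Col18a1* 8 and 85. Single far bins listed only in H3K27me3-RADIP had few pairs each. For *Gpc3* they included the bin with the start of *Zdhhc9*, 4047 kb from the gene, with 15 pairs, the bin with *Rhox1*, a homeobox gene of the X chromosome, at 15047 kb with 11, and the bin with *Haus7* at 20836 kb with 9. For *Col18a1* they included the bin with *Arid3a* (2758 kb, 9 pairs) and for *Itga9* that with *Xirp1* (1099 kb, 11 pairs). *Hspg2* had 39 bins in H3K27me3-RADIP and 22 in Input, and the bins that H3K27me3-RADIP alone listed included those with the start sites of *Wnt4* (12 pairs), *Epha8* (10), *Ephb2* (9) and *Id3* (10). These bins were picked for their genes after the values were seen, and none of those named had more than 15 pairs.

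RNA tags came from introns in 93.0% of member pairs in both tables, beside 88.9% and 89.6% over all pcRNAs, and unspliced RNA and excised introns cannot be told apart. Coding exons gave 4.74% and 4.95%, and 3′ untranslated regions gave 0.88% and 0.89%, beside 3.10% and 2.95% over all pcRNAs. The *Fn1* RNA had the lowest intron share of the members with over 200 pairs in both tables, 71.0% and 73.7%. Pairs with distinct tag positions were 92.9% in Input and 90.4% in H3K27me3-RADIP.

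The genes were also looked at as chromatin, by counting pairs of other genes' RNA whose DNA tag lay in the body of a member, with a TMM factor of its own. Such received pairs were 4137 in Input and 6078 in H3K27me3-RADIP. Of 73 members with at least 20, 15 were 2-fold higher (20.5%, beside 16.1% of pcRNA genes) and 5 were 2-fold lower (6.85%, beside 15.3%), with a median log2 ratio of 0.48, beside 0.05. *Col4a2* received 84 and 279 pairs (1.53, 1.17 to 1.90), among them those of *Col4a1* and 41 and 76 of *Arhgef7*. *Adamtsl3* received 12 and 85 pairs (2.62, 1.74 to 3.63), of which 12 and 70 came from *Tenm4*. *Fbln2* received 112 and 209 (0.70, 0.36 to 1.04) and *Col26a1* received 127 and 235, with 127 and 224 from *Cux1*. The bodies of *Fras1* and *Fbn2* received none in either table. The 5 that were 2-fold lower were *Itgb1* (31 and 6 pairs, -2.57, -4.12 to -1.29), *Lamc1* (62 and 13), *Fn1* (51 and 17), *Lama2* (80 and 32) and *Adamts3* (20 and 11). Each of these rested on 1 to 4 RNAs. All pairs received by *Itgb1* came from *Pard3*, those of *Lama2* from *Ptprk* and those of *Adamts3* from *Ankrd17*. *Lamc1* received 19 and 0 pairs from *Dhx9*, among others, and *Fn1* received 23 and 0 from *Mreg* and 14 and 17 from *Atic*.

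Genes around this set were counted from lists of other matrix proteins and receptors, matrix enzymes, and adhesion proteins inside the cell. Among other matrix proteins and receptors, 7 of 26 were 2-fold higher (26.9%, beside 7.44% of pcRNAs) and 2 lower (7.69%, beside 8.28%), with a median log2 ratio of 0.57. *Spock1*, a proteoglycan, had 97 and 220 pairs (1.15, 0.80 to 1.51), *Ltbp3*, which binds latent TGF-beta, had 7 and 26 (1.86, 0.62 to 3.31), and *Hmcn1* had 68 and 19 (-1.87, -2.69 to -1.12) while its relative *Hmcn2* had 48 and 101 (1.04, 0.53 to 1.57). The collagen receptors *Ddr1* (20 and 8) and *Ddr2* (13 and 42) differed likewise, with log2 ratios of -1.35 and 1.66. Of enzymes and inhibitors, 2 of 9 were 2-fold higher (22.2%, beside 7.44%), *Timp2* (7 and 31) and *Loxl1* (7 and 19). All 9 had fewer than 100 pairs over both tables. Of pcRNAs with 20 to 49 pairs 13.7% were 2-fold higher, and of those with 50 to 99 pairs 9.38%. The 7.44% set beside these lists is not matched for depth. Of the adhesion proteins inside the cell, such as talins, tensins and kinases, 1 of 19 was 2-fold higher (5.26%, beside 7.44%), *Lims2* (8 and 30), with a median log2 ratio of 0.05.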

How the data were processed

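H3K27me3-RADIP and Input pairs of PGK12.1 mESCs were compared. The authors mapped tags to mm10 with BWA (the submitters' processing notes also list CASAVA and STAR), kept unique pairs (mapping quality 37), assigned RNA tags to GENCODE genes by strand and DNA tags to 25-kb bins, and merged the libraries. The deposited q-values are the authors' adjusted p-values from a negative binomial model with Benjamini-Hochberg adjustment, and pairs above a q-value of 0.1 were removed. Lines were counted per RNA name. Input held 1305107 pairs and H3K27me3-RADIP 1415135. Log2 ratios used TMM (trims of 30% and 5%) with exact Clopper-Pearson 95% intervals, and shares used Wilson intervals, all for counting error only. The ratio, TMM and interval code was tested on simulated data. Without molecular identifiers amplified copies cannot be told from separate molecules. With 1 merged table per condition no p-value was computed. Distances ran between tag centres. Gene spans came from GENCODE M21 on the same build, in which all 116 identifiers matched without their version, and sequences from RefSeq (GRCm38.p6). RNAs named were the 6 highest and 6 lowest ratios with at least 20 pairs, the 6 with the most pairs, the 5 with the most pairs over 1 Mb, the 4 with the most pairs listed in 1 table only (each table) and 2 per role group, and others were named after their values were seen. The members and lists were chosen with earlier results of these data known. Alternatives were a q-value limit of 0.01, tag positions counted once, other scaling, other minimum counts and limits, gene identifiers, and shared combinations. Python 3.11.15, pandas 2.3.3, NumPy 2.4.6, SciPy 1.17.1 and matplotlib 3.10.9 were used. Pairs that failed the q-value limit were not analysed here.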

Additional observations from a re-analysis of the deposited data

How the results depend on the processing

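No paired analysis was possible because the libraries of each condition were merged into 1 table. The counts of 20 members 2-fold higher and 1 lower, the median log2 ratio, the 90 members in both tables, the long-range share and the distance count were each recomputed, and 10 of 51 values moved by more than 1.5 times (counts), 0.1 (median log2 ratio) or the counting error (long-range share). With a q-value limit of 0.01, 15 of 71 were higher (all pcRNAs 6.83%) and the median was 0.30. The distance count was 39 of 61 in shared combinations, against 52 of 72. With only RNA–bin combinations that both tables list, 4 members were 2-fold higher (all pcRNAs 1.77%) and 0 lower (2.05%), with a median log2 ratio of 0.21. This alternative leaves out every bin listed in 1 table. With at least 50 pairs 8 of 56 were higher (4.74%), and with a log2 limit of 0.5 there were 40 higher (21.2%) and 9 lower (22.9%). With repeated tag positions counted once, 0 were lower (8.22%) and the median was 0.55, and the cause was not tested. The long-range difference of members was 3.40 percentage points, smaller than the 7.29 over all pcRNAs. It was 1.58 with a limit of 1 Mb (2.56 over all pcRNAs) and 4.84 for DNA tags outside the own gene (8.27). Scaling by all pcRNA pairs in place of TMM shifted the median of all pcRNAs from 0.00 to -0.07, and 16 members were then 2-fold higher (6.29%) and 1 lower (10%). Without the 3 members with the most pairs the long-range difference was 2.31, beside 7.29 over all pcRNAs. Leaving out the 4 names that are no matrix protein or integrin, an alternative chosen after seeing the data, gave 20 and 1. No replicate could be left out. Depth limits most members, since 48 of the 84 had fewer than 100 pairs over both tables.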
